A study of Mus musculus with 32 samples.

Results

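The 8 arrays numbered 17 and 18, 2 from each of 4 murine Ba/F3 lines, were set against the 24 arrays of the same lines numbered 13, 14, 15, 16, 19 and 20, out of 32 arrays in all. They were selected on measured values of these same arrays, namely on low log2 values of the myeloid genes Ctsg, Mpo and Itgam in some of the lines. All differences between arrays 17 and 18 and the others are therefore given as a description, without a test. Ba/F3 is a pro-B cell line of the mouse that depends on interleukin-3, and all 4 lines carried human gp130, the signal-transducing receptor of IL-6. Ba/F3-gp130 cells (the gp130 line) carried nothing further according to the labels. Ba/F3-IL-12Rβ1-IL-23R cells (the IL-12Rβ1-IL-23R line) also expressed both chains of the IL-23 receptor. Ba/F3-SyCyR(IL-23/2A) cells (the SyCyR(IL-23/2A) line) expressed synthetic receptors in which nanobodies against GFP and mCherry replace the ligand-binding parts of IL-12Rβ1 and IL-23R, whereas Ba/F3-SyCyR(IL-23R) cells (the SyCyR(IL-23R) line) expressed a GFP-binding IL-23R alone. Each receptor was represented by 1 transduced line, grown with Hyper-IL-6. Per the labels, cells were kept in serum-free medium for 3 h and then given 100 ng/ml of GFP-mCherry, HmIL-23 or 3xGFP for 1 h, but the labels do not give the ligand of an array, nor what its number or an odd or even number stands for. Each group of arrays therefore may hold stimulated and control cells.

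Myeloid cells take their identity from transcription factors such as PU.1 (Spi1) and the C/EBP proteins, which switch on the genes of granule enzymes, adhesion receptors and pattern receptors. Granule enzymes such as myeloperoxidase are made early, in granulocyte precursors, whereas integrin β2 and the immune receptors with their adaptor Tyrobp are carried by most mature myeloid cells. Leukaemic and cytokine-dependent progenitor lines can transcribe such genes beside lymphoid ones.

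The arrays were alike in scale. Array medians were 7.01 to 7.10 on the log2 scale on arrays 17 and 18 and 6.94 to 7.18 on the others. The interquartile range was 3.65 to 3.75 on arrays 17 and 18 and 3.46 to 3.85 on the others. The receptor genes matched the label in the IL-12Rβ1-IL-23R line. There Il23r was at 13.18 to 13.28 on arrays 17 and 18 and at 13.17 to 13.33 on the others. Il23r reached at most 6.67 in the SyCyR(IL-23/2A) line and 6.59 in the SyCyR(IL-23R) line, against 6.78 in the gp130 line. Its level thus did not identify the SyCyR lines. Of 22 measured pro-B cell markers, 6 had a mean above 7.04, which was the median over the means of all probe sets, among them Cd79a and Cd79b. A probe set under 7.04 is not shown to be above background, and a difference that reaches under that level may understate the change in RNA. In these bulk samples, fewer cells of a type and less RNA per cell cannot be told apart.

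The promoters of 4 of the genes described below are shown because all 4 genes belong to the myeloid lists and were low on arrays 17 and 18. Each is the 250 bases before the start of the gene, read 5′ to 3′ on the strand of the gene from RefSeq (GRCm38.p6). Capitals mark GAGGAA, a PU.1-type motif, or TTGCNNAA, a C/EBP-type motif, on either strand (reverse complements TTCCTC and TTNNGCAA), and the motifs do not overlap in these windows. Mpo encodes myeloperoxidase, Ctsg the granule protease cathepsin G, Lcn2 the iron-carrier-binding protein lipocalin-2 and Clec4e the pattern receptor Mincle.
Mpo (chr11:87793534-87793783, plus strand): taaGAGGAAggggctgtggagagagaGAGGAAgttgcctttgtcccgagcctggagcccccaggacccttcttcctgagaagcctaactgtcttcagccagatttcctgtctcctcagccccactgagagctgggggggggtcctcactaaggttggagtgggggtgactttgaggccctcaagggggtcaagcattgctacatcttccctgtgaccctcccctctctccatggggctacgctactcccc
Ctsg (chr14:56102575-56102824, minus strand): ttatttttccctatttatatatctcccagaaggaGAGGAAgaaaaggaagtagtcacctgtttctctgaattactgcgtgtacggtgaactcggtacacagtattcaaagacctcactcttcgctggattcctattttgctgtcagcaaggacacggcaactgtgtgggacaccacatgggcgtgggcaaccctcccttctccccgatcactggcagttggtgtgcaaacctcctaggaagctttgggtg
Lcn2 (chr2:32387740-32387989, minus strand): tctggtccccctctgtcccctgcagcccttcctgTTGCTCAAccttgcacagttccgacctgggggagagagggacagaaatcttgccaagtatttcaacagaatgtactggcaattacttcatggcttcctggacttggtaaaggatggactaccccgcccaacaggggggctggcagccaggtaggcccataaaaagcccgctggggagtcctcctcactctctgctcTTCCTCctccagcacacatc
Clec4e (chr6:123289872-123290121, minus strand): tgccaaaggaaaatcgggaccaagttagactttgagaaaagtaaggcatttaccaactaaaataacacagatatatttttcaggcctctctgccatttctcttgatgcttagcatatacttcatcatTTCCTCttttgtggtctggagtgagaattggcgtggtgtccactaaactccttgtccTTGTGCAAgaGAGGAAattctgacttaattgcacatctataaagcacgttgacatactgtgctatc
Mpo had 2 PU.1-type matches, Ctsg had 1, Lcn2 had 1 of each type, and Clec4e had 2 PU.1-type matches and 1 C/EBP-type match. Among the 15 genes with the lowest differences described below, 14 had a promoter in the table. In the window of 300 bases, which adds 50 bases after the start, the PU.1-type motif stood in 10 of these 14 promoters (71.4%), against 28.3% of all 27025 promoters. The C/EBP-type motif stood in 2 of the 14 (14.3%), against 10.8% of all. These shares are a description of the letters in the window and were not tested.

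Over all 4 lines, arrays 17 and 18 were set apart mainly by genes that were low on them. With line and odd or even number as covariates, 64 of the 23410 probe sets with a gene symbol were at least 1.5-fold lower on arrays 17 and 18 (0.273%), and 1 was at least 1.5-fold higher (0.00427%). At the looser limit of 1.25-fold there were 409 lower (1.75%) and 72 higher (0.308%). The differences of all probe sets had a median of 0.01 on the log2 scale, with 5% of them under -0.20 and 95% under 0.14, so most genes were close to level. Of the 57 genes with 1 symbol behind the lower probe sets, 56 had a mean above 7.04. Both arrays lay under all 6 other arrays of the line in all 4 lines for 16 of these genes, in 3 lines for 22, in 2 lines for 17 and in 1 line for 2. Among all probe sets, 0.414% were under the others in all 4 lines. Of the 57 genes, 8 (14%) stood in 1 of 4 lists of myeloid genes, which held 110 (0.552%) of the 19938 genes with 1 symbol. The 8 include Mpo and Ctsg, whose low values had led to the choice of these arrays. The lists were also written with earlier results of these data known. The share is therefore partly set by the choice and is a description, not a test. Just inside the limit were Nfkbia (-0.591), Gsn (-0.591) and Tyrobp (-0.585), and just outside Hmox1 (-0.584), Rapsn (-0.582) and Ceacam1 (-0.579).

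**Figure D1:**
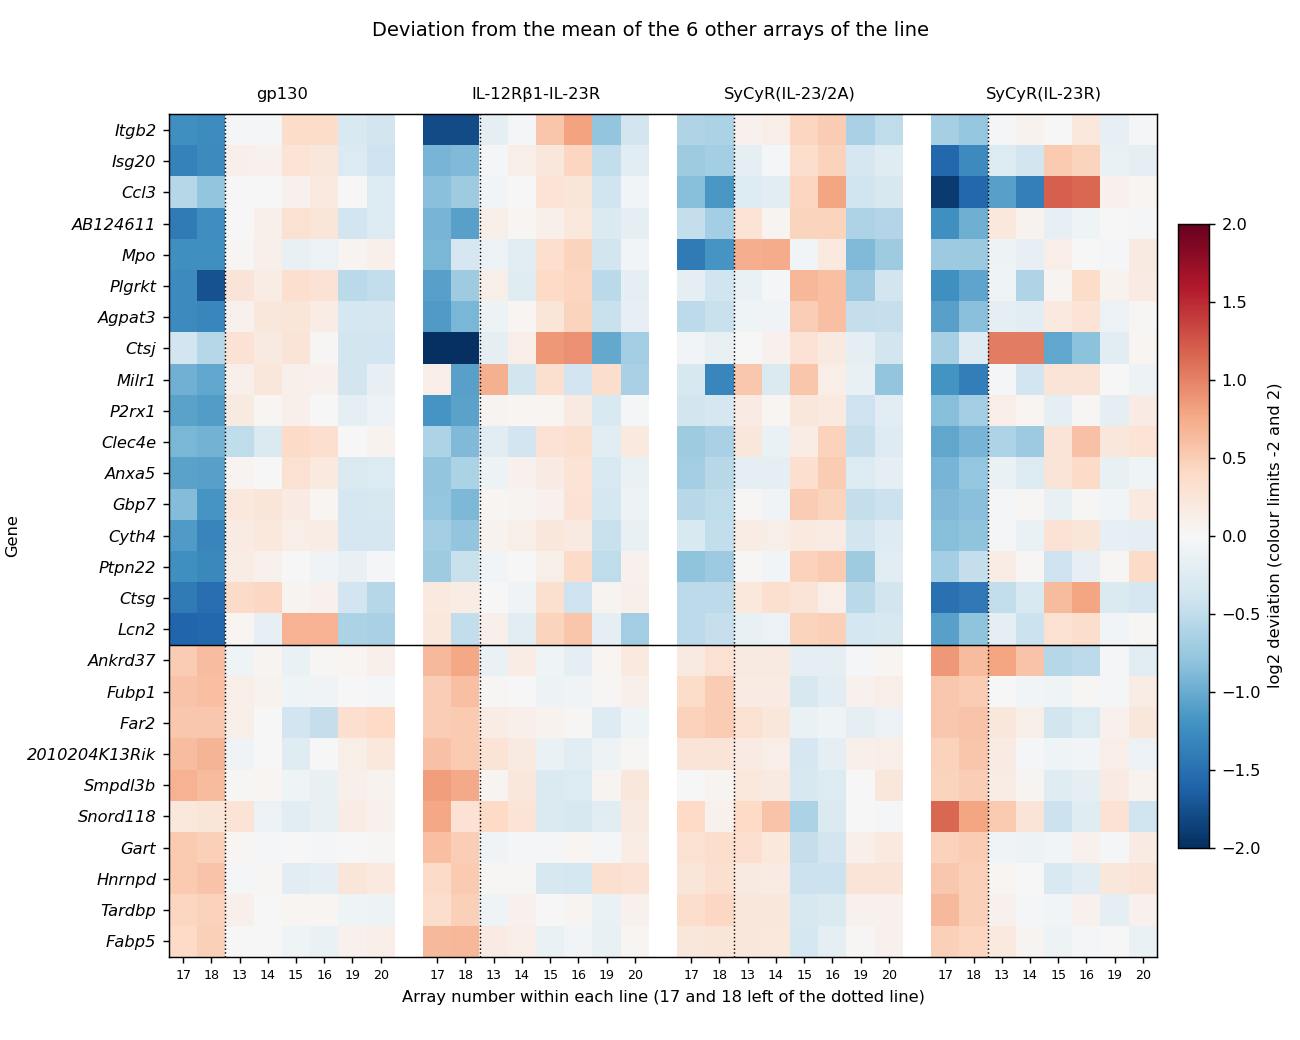
Log2 deviation of each array (columns, arrays 17 and 18 left of the dotted line in each line) from the mean of the 6 other arrays of its line, for the 15 genes with the lowest differences, Ctsg and Lcn2, and the 10 with the highest (rows, split by the horizontal line). Values past -2 or 2 have the end colour. The low genes are blue on arrays 17 and 18 in most lines, most strongly in the gp130 line, and in the SyCyR(IL-23/2A) line arrays 19 and 20 are often blue as well.

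The gene with the lowest difference was Itgb2, which encodes integrin β2, the shared chain of the leukocyte integrins. In the gp130 line its log2 values were 6.81 and 6.77 on arrays 17 and 18, against 7.67 to 8.41 (median 8.00) on the other 6 arrays. The values in the IL-12Rβ1-IL-23R line were 8.13 and 8.12, against 9.13 to 10.72 (median 9.81). In the SyCyR(IL-23R) line they were 7.40 and 7.28, against 7.89 to 8.26 (median 8.03). The groups did not overlap in these 3 lines. In the SyCyR(IL-23/2A) line they did, at 6.79 and 6.76 on arrays 17 and 18 and 6.75 to 7.90 (median 7.50) on the others. Over the lines the difference of Itgb2 was -1.09 (SD 0.54, n = 4 lines). Its partner chain gene Itgam, one of the genes that led to the choice, differed by -0.35 (SD 0.35, n = 4 lines). Only in the SyCyR(IL-23R) line were its values above 7.04, at 7.14 and 7.23 on arrays 17 and 18 and 7.66 to 8.65 (median 8.04) on the others.

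Of the granule enzymes, Mpo was lower on arrays 17 and 18 in each line. Its log2 values in the gp130 line were 8.72 and 8.73, against 9.80 to 10.05 (median 9.98) on the other arrays. In the SyCyR(IL-23/2A) line they were 8.10 and 8.34, against 8.63 to 10.26 (median 9.59), and in the SyCyR(IL-23R) line 7.21 and 7.19, against 7.77 to 8.12 (median 7.92). These groups were separate, with array-to-array spread widest in the SyCyR(IL-23/2A) line. In the IL-12Rβ1-IL-23R line, which had the least Mpo signal, array 17 was at 6.34 and array 18 at 6.92, against 6.89 to 7.70 (median 7.17), so array 18 lay within the range of the others. The difference of Mpo over the lines was -0.97 (SD 0.34, n = 4 lines).

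Ctsg did not behave alike in the lines. Its difference was -1.47 in the gp130 line and -1.46 in the SyCyR(IL-23R) line, where the groups were separate. In the SyCyR(IL-23/2A) line arrays 17 and 18 were both at 7.08, against 7.07 to 7.92 (median 7.77), and thus at the lower end of the others. In the IL-12Rβ1-IL-23R line all Ctsg values were under 7.04, at 6.0 and 5.95 on arrays 17 and 18 and 5.40 to 6.12 (median 5.84) on the others. The difference over the lines was -0.82, with an SD of 0.79 over the 4 lines that was nearly as large.

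Lcn2 followed the same order of lines. In the gp130 line it was at 9.37 and 9.39 on arrays 17 and 18, against 10.31 to 11.65 (median 10.90), a difference of -1.58 and 2.98-fold lower. In the SyCyR(IL-23R) line, where Lcn2 was brightest, it was at 12.34 and 12.63, against a median of 13.41 (highest 13.78) on the others, without overlap. In the SyCyR(IL-23/2A) line it was at 11.02 and 11.08, against 11.19 to 12.02 (median 11.41), still without overlap. The IL-12Rβ1-IL-23R line values, 6.91 and 6.21 against 6.0 to 7.26 (median 6.66), overlapped. Lcn2 differed by -0.79 over the lines (SD 0.62, n = 4 lines).

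**Figure D2:**
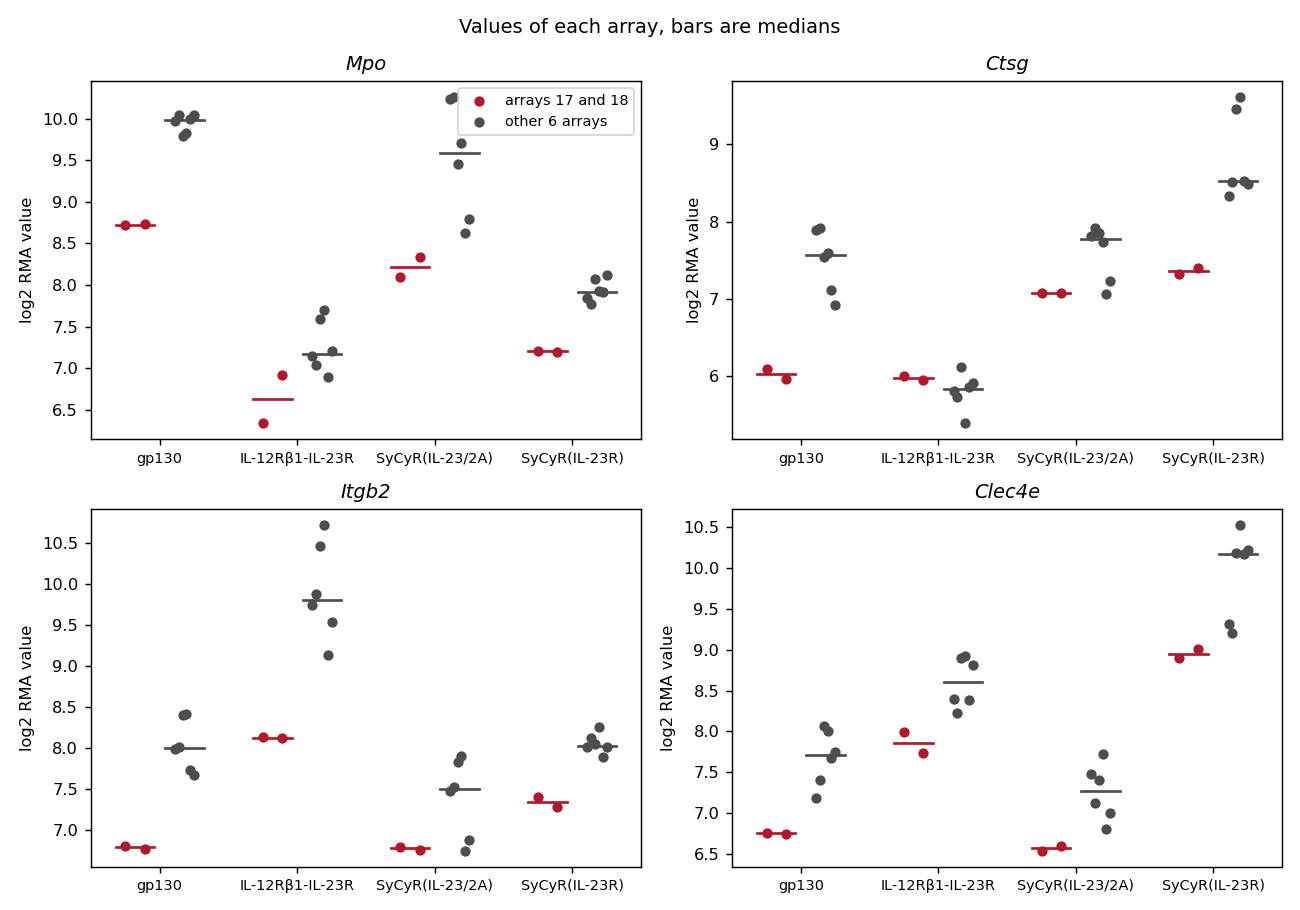
RMA values (log2, y axis, own scale in each panel) of Mpo, Ctsg, Itgb2 and Clec4e in the 4 Ba/F3 lines (x axis). Each point is 1 array, red for arrays 17 and 18 and grey for the 6 others, and bars are medians. Clec4e is separate in all 4 lines, whereas Ctsg overlaps in the IL-12Rβ1-IL-23R line, where its values lie between 5.40 and 6.12.

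The shift did not cover the granule genes as a whole. Of 24 measured genes for granule proteins of granulocytes, 11 of them above 7.04, Mpo, Ctsg and Lcn2 were past 1.5-fold and no other passed 1.25-fold. Among all probe sets, 0.273% were past 1.5-fold downwards and 1.75% past 1.25-fold downwards. The median difference of this list was -0.08, against 0.01 over all probe sets. Prtn3, which encodes proteinase 3 and is as typical of granulocyte precursors as Mpo, differed by 0.20 (SD 0.15, n = 4 lines) at a mean of 11.7. Ms4a3, a marker of granulocyte and monocyte progenitors, differed by -0.10 at a mean of 12.97. Elane, Ltf and S100a8 had means under 7.04 and differences of 0.03, 0.07 and -0.08. The name myeloid-like thus described single genes of this list and not its majority.

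Of 41 measured myeloid surface receptors and adaptors, 19 of them above 7.04, 34 had a difference below 0, against 46.7% of all probe sets. Downwards, 11 were past 1.25-fold and 4 past 1.5-fold, against 1.75% and 0.273% of all probe sets, and none was past either limit upwards. The list median was -0.12, and within each line it lay between -0.15 and -0.11. Averaged over the list, the deviation from the mean of the 6 other arrays of a line was -0.27 to -0.13 on the 8 arrays numbered 17 and 18. On the 24 others it was -0.14 to 0.17, so the ranges overlapped slightly. Clec4e had the most even difference of the 4, -0.84 (SD 0.14, n = 4 lines), and both arrays were under the others in all 4 lines. In the SyCyR(IL-23R) line, which had most of it, Clec4e was at 8.90 and 9.01, against 9.21 to 10.53 (median 10.18). Tyrobp, the adaptor DAP12, differed by -0.59 (SD 0.19, n = 4 lines) and was separate in 2 lines. Fcer1g, the adaptor of Fc receptors and of Mincle, differed by -0.50 (SD 0.13, n = 4 lines), with both arrays under the others in all 4 lines. Cxcr2, a receptor for neutrophil chemokines, was separate in the gp130 line, at 7.89 and 7.89 against 8.50 to 8.97, and in the IL-12Rβ1-IL-23R line, at 6.89 and 6.72 against 7.19 to 8.52. In the SyCyR lines, where Cxcr2 was brighter, arrays 17 and 18 differed from each other. They were at 10.64 and 9.26 in the SyCyR(IL-23/2A) line, against 9.76 to 11.21 on the others, and at 10.57 and 9.64 in the SyCyR(IL-23R) line, against 9.84 to 10.88. The ranges of the others pool odd and even numbers, so they do not show whether this gap is particular to arrays 17 and 18. The receptors Csf1r, Csf3r and Fcgr3 had means under 7.04 and differences of 0.00, -0.02 and 0.10.

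Transcription factors showed a split within their list. Of 16 measured myeloid transcription factors, 3 were past 1.25-fold downwards, against 1.75% of all probe sets, and none past 1.5-fold, with a median of -0.01. Runx1, a regulator of early haematopoiesis, differed by -0.56 (SD 0.20, n = 4 lines), with arrays 17 and 18 under the others in all 4 lines. Id2, an inhibitor of E proteins, differed by -0.46, Cebpb by -0.37 and Cebpa by -0.32. Spi1 itself differed by -0.01 at a mean of 11.3, and Myb by 0.00 at a mean of 12.4. RNA levels on arrays 17 and 18 were thus lower for some of these genes and level for others.

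Among 29 macrophage and lysosome genes, Ccl3, which encodes a chemokine of macrophages, was past 1.5-fold, and 7 were past 1.25-fold downwards (median -0.05). The shares of all probe sets past these limits downwards were 0.273% and 1.75%. In the SyCyR(IL-23R) line, where Ccl3 was bright, it was at 9.82 and 10.15 on arrays 17 and 18, against 10.36 to 12.92 (median 11.79). In the 3 other lines arrays 17 and 18 lay between 6.28 and 6.72, under the other arrays of each line but also under 7.04. Ccl3 had a difference of -1.05 over the lines (SD 0.48, n = 4 lines). The lysosomal protease gene Ctsd was lower by a smaller but even amount, -0.28 (SD 0.07, n = 4 lines), and Lamp1 differed by -0.12 (SD 0.01, n = 4 lines).

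Other genes among the lowest belonged to no myeloid list. Isg20, an interferon-induced exonuclease, was at 8.22 and 8.31 in the gp130 line, against 9.17 to 9.85 (median 9.67). In the SyCyR(IL-23R) line it was at 8.66 and 8.95, against 9.86 to 10.76 (median 10.07). It was separate in all 4 lines, with a difference of -1.08 (SD 0.34, n = 4 lines). Of 18 interferon response genes, a list without Isg20, 3 were past 1.25-fold downwards, against 1.75% of all probe sets, and none past 1.5-fold. The list median was -0.06, with Usp18 at -0.40 and Oas2 at -0.38. Anxa5, which encodes the phosphatidylserine-binding protein annexin A5, was at 10.49 and 10.48 in the gp130 line, against 11.27 to 11.87 (median 11.58). Its difference was -0.82 (SD 0.19, n = 4 lines), and that of the annexin gene Anxa2 was -0.79 (SD 0.20, n = 4 lines), both separate in all 4 lines. Gbp7, a guanylate-binding protein gene, differed by -0.81 (SD 0.20, n = 4 lines) and Trp53inp1, a p53-induced gene, by -0.78 (SD 0.23, n = 4 lines), again without overlap in any line. The remaining genes among the 15 lowest were AB124611 (-1.0), Plgrkt (-0.96), Agpat3 (-0.94), Milr1 (-0.90), P2rx1 (-0.84), Cyth4 (-0.80) and Ptpn22 (-0.80), whose arrays 17 and 18 were separate in 2 or 3 lines. Ctsj had a difference of -0.92 over the lines (SD 1.16, n = 4 lines), but of -2.64 in the IL-12Rβ1-IL-23R line and of -0.48 to -0.10 in the 3 others. Agpat3 is an acyltransferase of phospholipid synthesis, P2rx1 an ATP-gated channel and Ptpn22 a phosphatase that restrains immune receptor signaling.

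Signaling target genes were also mostly below 0. Of 30 ERK immediate early and feedback genes, 26 had a difference below 0, against 46.7% of all probe sets. Of the 30, 7 were past 1.25-fold downwards, against 1.75% of all probe sets, and none past 1.5-fold, with a median of -0.20. Dusp4 and Dusp6, phosphatases that switch off MAP kinases, differed by -0.58 (SD 0.13, n = 4 lines) and -0.54 (SD 0.19, n = 4 lines). Of 14 NF-κB response genes 13 were below 0 (median -0.19), with a median of -0.39 in the SyCyR(IL-23R) line and of -0.15 to -0.08 in the 3 others. Nfkbia, which encodes the inhibitor IκBα, differed by -0.59 (SD 0.47, n = 4 lines), with -1.30 in the SyCyR(IL-23R) line and -0.39 to -0.29 in the 3 others. Tnf differed by -0.49 (SD 0.30, n = 4 lines), and its groups overlapped in all 4 lines. Of 17 STAT3 targets 14 were below 0 (median -0.13), with Pim1, a survival kinase gene, at -0.35. The feedback inhibitor gene Socs3 differed by 0.01. From the mean of the 6 other arrays of a line, the STAT3 list deviated by -1.16 to 0.74 on arrays 17 and 18. On the others it deviated by -1.04 to 1.07. The difference was small beside this spread over arrays, whose stimulation is unknown. Unlike the difference, the spread was not adjusted for odd or even number. Pim1, for example, was at 12.44 and 9.62 on arrays 17 and 18 of the IL-12Rβ1-IL-23R line. It was at 12.36 and 9.79 in the SyCyR(IL-23/2A) line, 12.12 and 10.27 in the SyCyR(IL-23R) line and 9.42 and 9.55 in the gp130 line.

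Amino acid response and starvation genes held a few low members. Of 19 ATF4 amino acid response genes 14 were below 0, 4 past 1.25-fold and 2 past 1.5-fold (median -0.13). Among all probe sets, 46.7% were below 0, 1.75% were past 1.25-fold downwards and 0.273% past 1.5-fold downwards. Slc7a11, the cystine transporter, had one of the most even differences, -0.65 (SD 0.06, n = 4 lines). It was at 8.75 and 8.53 in the gp130 line, against 8.99 to 9.49 (median 9.19), and was separate in all lines. Trib3, a pseudokinase induced by amino acid shortage, differed by -0.60 (SD 0.39, n = 4 lines). Of 17 FoxO and starvation genes Txnip, an inhibitor of glucose uptake, was past 1.5-fold (-0.61, SD 0.17, n = 4 lines), and the autophagy genes Sqstm1 (-0.55) and Map1lc3b (-0.32) were separate in all 4 lines (list median -0.07). Of 25 glycolysis and hypoxia genes 2 were past 1.25-fold downwards and 1 upwards, against 0.308% of all probe sets upwards (median -0.03). They included the glucose transporter gene Slc2a3 (-0.57) and the hypoxia-induced gene Ankrd37 (0.57).

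**Figure D3:**
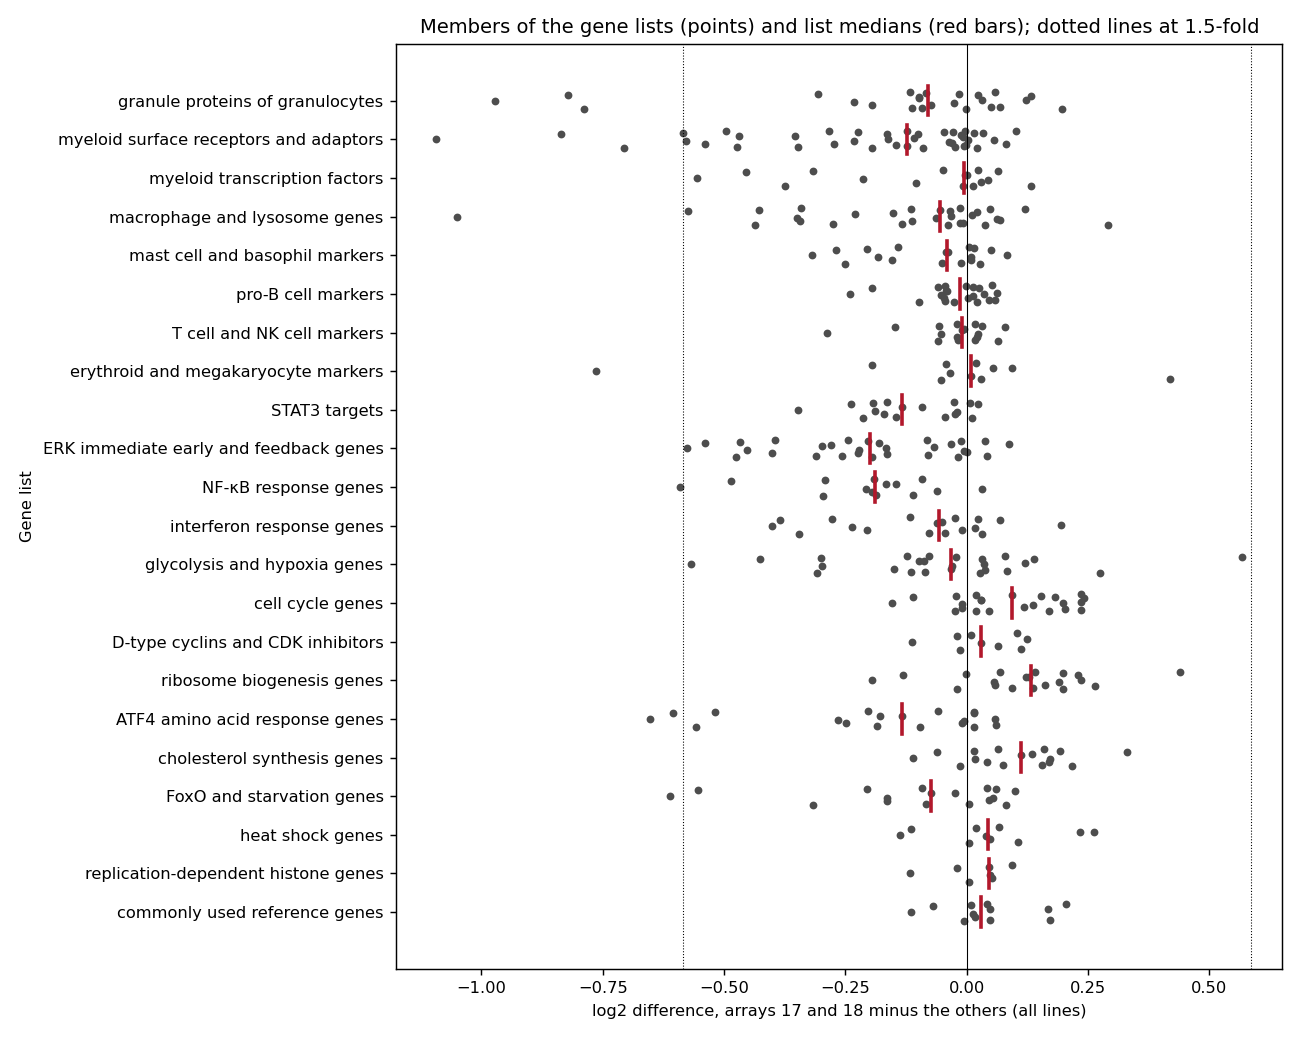
Log2 difference of arrays 17 and 18 from the other arrays over all lines (x axis) for each measured member (points) of 22 gene lists (rows), with the list median as a red bar and dotted lines at 1.5-fold in each direction. Points past the left dotted line are few in every list, and the medians run between -0.20 for ERK genes and 0.13 for ribosome biogenesis genes.

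Past the limits of 1.5-fold and 1.25-fold fewer genes were higher than lower on arrays 17 and 18, although 53.3% of all probe sets had a difference above 0. Fubp1, which encodes a DNA- and RNA-binding regulator of Myc, was at 12.05 and 12.08 in the gp130 line, against 11.39 to 11.60 (median 11.45). In the SyCyR(IL-23/2A) line it was at 11.94 and 12.08, against 11.25 to 11.74 (median 11.67). Both arrays were above all others in all 4 lines, and the difference was 0.53 (SD 0.06, n = 4 lines). Far2, which makes fatty alcohols, differed by 0.52 (SD 0.03, n = 4 lines), the RNA-binding protein gene Tardbp by 0.45 (SD 0.08, n = 4 lines) and the fatty acid-binding protein gene Fabp5 by 0.45 (SD 0.17, n = 4 lines), all above the others in every line. Gart, an enzyme of purine synthesis, differed by 0.47 (SD 0.09, n = 4 lines) and Hnrnpd, which binds AU-rich RNA, by 0.45 (SD 0.12, n = 4 lines), each separate in 3 lines. The other genes of this set were Ankrd37, 2010204K13Rik (0.49), Smpdl3b (0.49) and the small nucleolar RNA gene Snord118 (0.49). Smpdl3b and Snord118 had an SD of 0.34 each over the 4 lines, and Snord118 was separate only in the SyCyR(IL-23R) line. Ctla2a was the single probe set with a gene symbol past 1.5-fold upwards (0.74), but its mean was not above 7.04.

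Of 20 ribosome biogenesis genes, 16 were above 0, against 53.3% of all probe sets, with a median of 0.13. Past 1.25-fold upwards was 1 of them, against 0.308% of all probe sets. This was Bop1 (0.44, SD 0.13, n = 4 lines), and Nolc1 (0.26, SD 0.04, n = 4 lines) was above the others in all 4 lines. Of 23 cell cycle genes 17 were above 0 (median 0.09), with the helicase subunit genes Mcm6 at 0.24 and Mcm4 at 0.20 and the cyclin gene Ccne1 at 0.24. From the mean of the 6 other arrays of a line, the list mean deviated by 0.05 to 0.13 on arrays 17 and 18. On the others it deviated by -0.14 to 0.10. Of 17 cholesterol synthesis genes 14 were above 0 (median 0.11), led by Idi1 (0.33). In this list the lines differed, with medians of 0.20 in the gp130 line, -0.06 in the IL-12Rβ1-IL-23R line, 0.03 in the SyCyR(IL-23/2A) line and 0.28 in the SyCyR(IL-23R) line. Tfrc, the transferrin receptor gene that proliferating cells use to take up iron, differed by 0.42 (SD 0.19, n = 4 lines). Both arrays were under the others in all lines for 91 genes in total (97 probe sets) and over them for 61 (70 probe sets, 0.299%). The 61 included the RNA polymerase II subunit genes Polr2l (0.35), Polr2f (0.31), Polr2e (0.23) and Polr2b (0.21).

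Of 18 mast cell and basophil markers, 22 pro-B cell markers and 17 T cell and NK cell markers, none was past 1.25-fold over all lines, with medians of -0.04, -0.01 and -0.01. In these lists 6, 6 and 4 members had a mean above 7.04, so that most were not shown to be above background. Within single lines, some of the brighter markers were past 1.5-fold or close to it. Fcer1a of the mast cell list had differences between -1.14 and 1.29 in single lines, which averaged out and are described below. Gzmb, which encodes the cytotoxic protease granzyme B, differed by -0.54 in the gp130 line and -0.84 in the SyCyR(IL-23R) line, against 0.12 and 0.11 in the IL-12Rβ1-IL-23R line and the SyCyR(IL-23/2A) line. The mast cell and basophil genes Mcpt8 and Ms4a2, both with means under 7.04, differed by -0.76 and -0.58 in the gp130 line. The pro-B cell genes Cd79a and Cd79b, which encode the signaling chains of the B cell receptor, differed by -0.20 and -0.24. From the mean of the 6 other arrays of a line, the pro-B list mean deviated by -0.08 to 0.04 on arrays 17 and 18. On the others it deviated by -0.04 to 0.09. Of 11 erythroid and megakaryocyte markers, the platelet glycoprotein gene Gp9 was past 1.5-fold downwards (-0.76, SD 0.46, n = 4 lines), against 0.273% of all probe sets. Commonly used reference genes had a median of 0.03 and included Tbp at 0.20 and Gusb at 0.17. The remaining lists were level, with medians of 0.04 for heat shock genes, 0.05 for histone genes and 0.03 for D-type cyclins and CDK inhibitors, and held no gene past 1.25-fold.

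The counts differed between the lines. In the gp130 line, 158 probe sets were past 1.5-fold downwards (0.675%) and 11 upwards (0.047%). In the IL-12Rβ1-IL-23R line it was 139 (0.594%) and 13 (0.0555%), and in the SyCyR(IL-23R) line 142 (0.607%) and 15 (0.0641%). The SyCyR(IL-23/2A) line had the fewest, with 22 downwards (0.094%) and 1 upwards (0.00427%). Its count was 13 downwards without number 16 and 43 without number 18. Over all 35556 probe sets, those without a gene symbol included, it had 68 downwards and 217 upwards, so there the direction turned. The upward count over all probe sets was 98 in the gp130 line, 111 in the IL-12Rβ1-IL-23R line and 247 in the SyCyR(IL-23R) line. A high upward count was thus not particular to the SyCyR(IL-23/2A) line. Both arrays lay under the others for 12.5% of probe sets in the gp130 line, 4.15% in the IL-12Rβ1-IL-23R line, 3.58% in the SyCyR(IL-23/2A) line and 8.24% in the SyCyR(IL-23R) line. They lay over the others for 9.54%, 4.84%, 3.75% and 6.96% of probe sets in the same order of lines. Over 13061 probe sets above 7.04, the differences of 2 lines correlated across genes with a Pearson's r between 0.573, for the SyCyR lines, and 0.766, for the gp130 line and the SyCyR(IL-23R) line. Genes are no independent replicates, and the lines share the array numbers and the normalization, so no test was made.

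The other numbers were not level among themselves. Averaged over the 15 lowest genes and taken from the mean of all 8 arrays of a line, arrays 17 and 18 were at -0.83 in the gp130 line, -0.74 in the IL-12Rβ1-IL-23R line, -0.46 in the SyCyR(IL-23/2A) line and -0.72 in the SyCyR(IL-23R) line. Arrays 19 and 20 were at 0.03, -0.05, -0.28 and 0.24 in the same lines, and were the lowest pair of numbers for 3 of the 15 genes in the SyCyR(IL-23/2A) line. Arrays 15 and 16 were the highest pair for 8, 14, 14 and 9 of the 15, with means of 0.45, 0.56, 0.54 and 0.38. For the 10 highest genes the order was turned, with arrays 17 and 18 between 0.22 and 0.43 and arrays 15 and 16 between -0.37 and -0.26. The place of arrays 17 and 18 at one end follows from the choice of these genes, and arrays 15 and 16 lay toward the other end in each line.

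Some genes were low or high in 1 or 2 lines only. The placental-type cathepsin gene Ctsj in the IL-12Rβ1-IL-23R line was at 9.35 and 9.84 on arrays 17 and 18, against 11.21 to 13.14 (median 12.20), 6.21-fold lower. In that line the related cathepsin gene Ctsr differed by -2.27 and Thbs1, which encodes the matrix protein thrombospondin-1, by -1.96, while Thbs1 lay between 6.75 and 7.15 on all arrays of the 3 other lines. Cox6a2, a subunit gene of cytochrome c oxidase, was separate in the gp130 line (-1.06) and in the SyCyR(IL-23R) line (-1.65), with 7.74 and 7.78 in the second, against 8.68 to 10.68 (median 9.0). The ATP receptor gene P2rx7 had the same pattern, with -0.89 in the gp130 line and -1.52 in the SyCyR(IL-23R) line, against 0.07 in the IL-12Rβ1-IL-23R line. The eosinophil peroxidase gene Epx was among the lowest in the SyCyR(IL-23/2A) line (-1.07), although its groups overlapped. Of genes higher on arrays 17 and 18, Xlr in the gp130 line was at 7.36 and 7.61, against 5.39 to 7.25 (median 5.95). Il2ra, which encodes the IL-2 receptor α chain, was higher in the IL-12Rβ1-IL-23R line (0.71) and the SyCyR(IL-23R) line (0.61). The other genes at the ends of a line were Plgrkt (-1.50) and 3830403N18Rik (0.74) in the gp130 line, Smpdl3b (0.80) and Ankrd37 (0.72) in the IL-12Rβ1-IL-23R line, Depdc7 (0.50) and Far2 (0.49) in the SyCyR(IL-23/2A) line and Snord118 (0.96), Ankrd37 (0.76) and Hirip3 (0.63) in the SyCyR(IL-23R) line.

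Fcer1a, which encodes the IgE-binding chain of the high-affinity IgE receptor, ran in opposite directions. In the gp130 line it was at 8.70 and 8.72 on arrays 17 and 18, against 7.57 to 8.27 (median 7.73), and in the SyCyR(IL-23/2A) line at 9.46 and 9.41, against 7.44 to 8.69 (median 8.21). In the IL-12Rβ1-IL-23R line it was at 6.97 and 6.96, against 7.95 to 8.48 (median 8.00), and in the SyCyR(IL-23R) line at 8.62 and 8.74, against 9.06 to 10.04 (median 9.91). The groups were separate in all 4 lines, higher in the first pair of lines and lower in the second. The difference over all lines was 0.00 (SD 1.26, n = 4 lines), so a mean over the lines hid it.

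**Figure D4:**
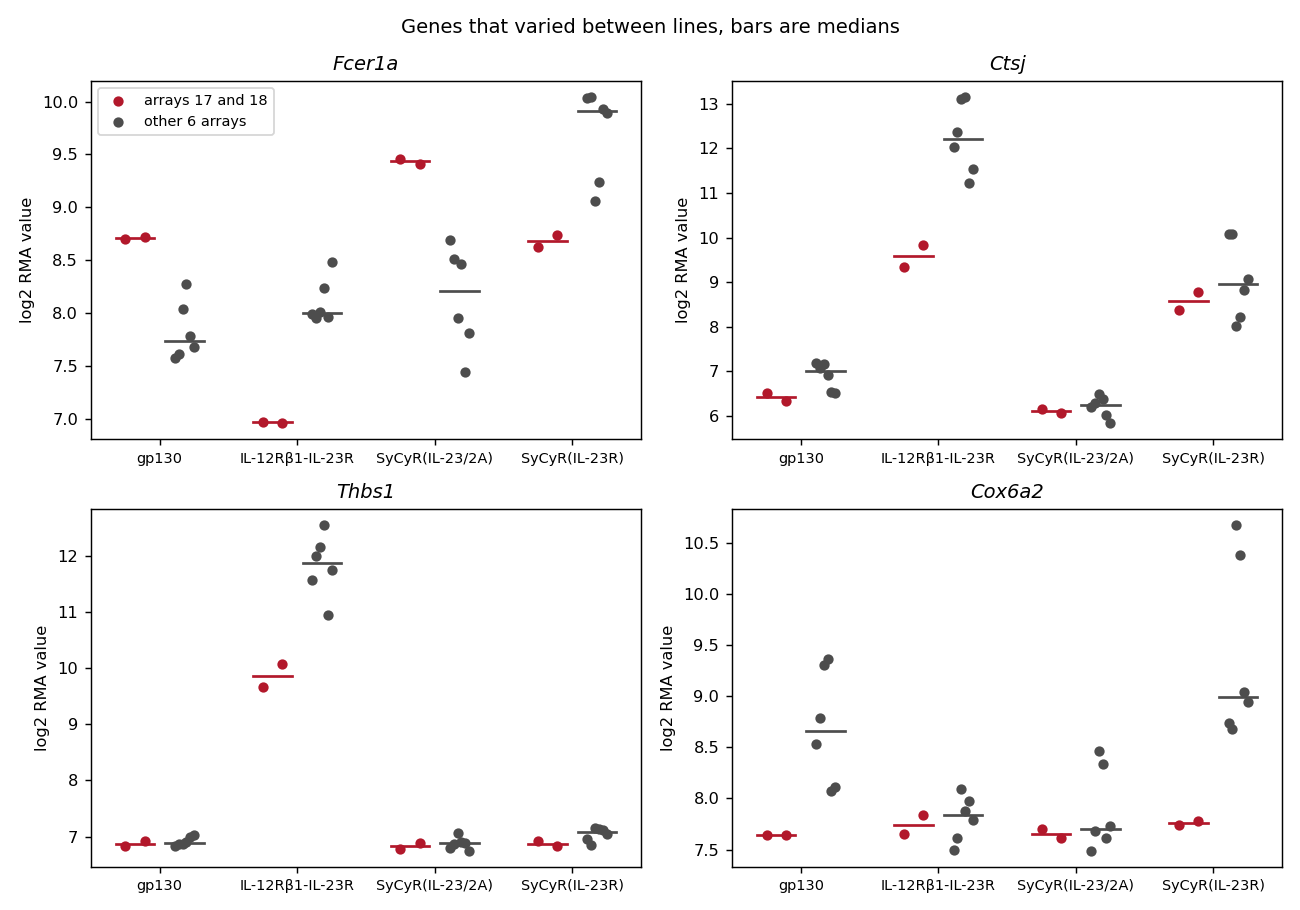
RMA values (log2, y axis, own scale in each panel) of Fcer1a, Ctsj, Thbs1 and Cox6a2 in the 4 Ba/F3 lines (x axis). Each point is 1 array, red for arrays 17 and 18 and grey for the 6 others, and bars are medians. Fcer1a is above the others in the gp130 line and the SyCyR(IL-23/2A) line and below them in the other lines, while Thbs1 stands out only in the IL-12Rβ1-IL-23R line.

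Whether array 17 differed from array 18 in another way than odd numbers did from even ones was the comparison that the choice of these arrays had not used, and it could be tested. In limma with Benjamini-Hochberg adjustment (two-sided, n = 32 arrays), 0 of 23410 probe sets had an adjusted p under 0.05, and 424 (1.81%) had an unadjusted p under 0.05. With each pair of consecutive numbers in a line as a block, a fit added after the data were seen, the counts were 0 and 725 (3.1%). With this block the smallest adjusted p was 1 after rounding. Because equal numbers resembled each other across lines, the 32 arrays are not independent here and the test rests on 1 number, 17, against 1 number, 18. The absence of calls does not show that the arrays were alike. Arrays of consecutive numbers also resembled each other, with a correlation of their deviations from their line and parity means of 0.251 to 0.814 (median 0.598, 16 pairs), against -0.649 to 0.405 (median -0.167) for 48 other odd-even combinations. Deviations of the 4 arrays of a line and parity sum to 0 by construction. Where consecutive numbers correlate positively, the values of the other combinations are therefore lowered.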

How the data were processed

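RNA of 32 samples, 8 per line, was hybridised to Affymetrix mouse Gene ST arrays by the authors. Normalization by the authors was done with RMA in Expression Console, per the labels, and the deposited values are log2 values of 35556 probe sets. RMA subtracts background, gives the probe signals of all arrays the same distribution and combines probes, so a shift common to all genes of an array is largely removed and low signals are compressed. No software version is given in the sources used here. Whether arrays of a line were separate cultures is stated by the study only in general, so spreads may be partly technical.

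Lines and array numbers came from the sample titles. Gene symbols came from the platform annotation, with 1 symbol for 21789 probe sets, several for 1621 and none for 12146, and for genes with more than 1 probe set the brightest was taken. Differences were fitted over the 23410 probe sets with a symbol in R 4.3.3 with limma 3.58.1 (line, odd or even number and an indicator for numbers 17 and 18). They were described by size with a limit of 1.5-fold and the SD of the 4 line differences. The odd-even interaction alone was tested. The fit was tested on simulated data with independent noise on each array. That simulation does not hold the resemblance between array numbers, so it does not vouch for the interaction test. Figures and promoter searches used Python 3.11.15, pandas 2.3.3 and matplotlib 3.10.9.

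The array numbers, the 22 gene lists and the rules were chosen with earlier results of these data known. Genes named were Ctsg, Mpo and Itgam, the 15 lowest and 10 highest above 7.04 with 1 sign in all lines, myeloid list members past 1.5-fold, up to 2 examples per other list, and the 3 lowest and 3 highest per line. Further list members, Anxa2, Trp53inp1 and the Polr2 genes were added after their values were seen. Deviations of same-numbered arrays from their line and parity means correlated by at least 0.114 in every pair of lines, with medians of 0.366 to 0.529, against -0.089 to -0.044 for other numbers. The numbers were therefore taken to pair the arrays across lines, from the values and from no label. By number, arrays 17 and 18 stand for 2 against 6. Consecutive numbers within a line also resembled each other (median correlation 0.598), and the paper describes independent replicates with and without ligand. Arrays 17 and 18 may therefore be 1 replicate and not 2, which no label settles.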

Additional observations from a re-analysis of the deposited data

Results flagged for a closer look

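In 5 of 304 groups of 8 arrays (76 named genes in 4 lines), 1 array lay far from the 7 others by Dixon's criterion, which chance alone meets in about 1 of 20 groups. Of these, 3 were array 18 of the IL-12Rβ1-IL-23R line. It had the lowest value of Dusp6, at 9.20 against 10.16 on the nearest array, the highest of Hspe1, at 12.92 against 12.70, and the highest of the histone gene H2ac8, at 7.67 against 7.36. Array 15 of the SyCyR(IL-23/2A) line was the highest for Thbs1, at 7.06 against 6.90, and array 19 of the IL-12Rβ1-IL-23R line the lowest for Depdc7, at 8.12 against 8.67.

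Fcer1a differed in direction between the lines, with both arrays 17 and 18 above the 6 others in the gp130 line (0.88) and the SyCyR(IL-23/2A) line (1.29) and below them in the IL-12Rβ1-IL-23R line (-1.14) and the SyCyR(IL-23R) line (-1.02). This difference between lines was not tested.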

How the results depend on the processing

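Over all lines 64 probe sets were lower and 1 higher past 1.5-fold. The lower count was 107 without the SyCyR(IL-23/2A) line, and, as alternatives added after seeing the data, 409 at a limit of 1.25-fold (72 higher) and 111 without numbers 19 and 20. The higher count was 0 among probe sets above 7.04, 10 over all probe sets, 2 after a further quantile normalization or without the SyCyR(IL-23R) line, and 3 without the SyCyR(IL-23/2A) line or with medians in place of means. Leaving out each number in turn gave 40 (without 16) to 95 (without 19) lower and 1 to 3 (without 18) higher. Within the lines, counts over all probe sets were 256 lower and 98 higher in the gp130 line, 252 and 111 in the IL-12Rβ1-IL-23R line, 68 and 217 in the SyCyR(IL-23/2A) line, and 247 higher in the SyCyR(IL-23R) line, and the gp130 line had 7 higher among probe sets above 7.04. Leaving out each number gave 141 to 201 lower and 10 to 22 higher (without 17) in the gp130 line, 109 to 182 and 9 to 36 (without 18) in the IL-12Rβ1-IL-23R line, 13 (without 16) to 43 (without 18) and 1 to 9 (without 18) in the SyCyR(IL-23/2A) line, and 121 to 181 and 6 (without 15) to 62 (without 18) in the SyCyR(IL-23R) line. The cause was not tested. With the title number as a replicate block the counts were the same, 64 and 1, since the layout is balanced, and the odd-even interaction gave 0 calls there and without each of numbers 13, 14, 15, 16, 19 and 20. It cannot be fitted without 17 or 18. Of 1444 gene values recomputed for 76 genes none changed sign past 1.5-fold and 1443 stayed within 1 SD. Thbs1 was at -0.08 without the IL-12Rβ1-IL-23R line. Precision is limited by the number of arrays, and signals under 7.04 have no shown level.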
